A study of Mus musculus with 2 samples.

Results

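Regulatory T cells (Tregs) were read out as Foxp3-positive T cells in scRNA-seq data of immune cells sorted from mouse liver tumors. A cell was a member when it held at least 1 UMI (unique molecular identifier, a count in which PCR copies of a molecule are collapsed) of Foxp3 and at least 1 of Cd3d, Cd3e or Cd3g, and none of Cd8a, Cd8b1, Cd79a or Csf1r. This gave 485 members of 25814 kept cells, 423 in the lenvatinib library and 62 in the combo library. They were set against 1062 comparison cells, 489 under lenvatinib and 573 under combo, which met the same conditions but held a Cd4 UMI and no Foxp3 UMI. Male C57BL/6J mice of 6 to 8 weeks received c-myc-luc, PX330-sg-p53 and sleeping beauty transposase by hydrodynamic tail vein injection, which makes Trp53KO/MYCOE hepatocellular carcinoma (HCC) in the liver. Lenvatinib, a multikinase inhibitor, was given at 30 mg/kg from day 12 for 25 days to all mice. The lenvatinib group then stayed on 30 mg/kg lenvatinib, and the combo group received 30 mg/kg lenvatinib with 100 mg/kg palbociclib, an inhibitor of CDK4 and CDK6. Each group is 1 library of live CD45+ cells, and the number of mice behind a library is not named. The tumors are driven by plasmids in hepatocytes, and the immune cells of the host are not engineered.

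Tregs are CD4 T cells that hold back the immune response, and in tumors they are known to restrain effector T cells. Their master transcription factor is Foxp3, which acts with Ikzf2 (Helios) and Ikzf4 (Eos). They take up IL-2 through its high-affinity receptor chain Il2ra (CD25), strip costimulatory ligands from antigen-presenting cells with Ctla4, and carry TNF receptor family members such as Tnfrsf4 (OX40), Tnfrsf18 (GITR) and Tnfrsf9 (4-1BB). Naive and central T cells instead use Tcf7, Lef1 and Ccr7, which fit circulation through lymph nodes.

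The lenvatinib library held 14509 barcodes and 98107503 UMIs, and the combo library held 11989 barcodes and 93583402 UMIs. After barcodes with over 6000 genes or over 25% mitochondrial UMIs were removed, 14201 and 11613 cells were kept. Members had a median of 3966 UMIs under lenvatinib (612 to 34826) and 3727 under combo (749 to 27619), so the medians differed by less than the spread among the cells. The summed depth was far less equal, with 2166213 UMIs over the lenvatinib members and 302947 over the combo members. Of 49 barcodes that occur in both libraries, 0 were members in both, and 2 members had a barcode that was a kept cell of the other library. Each treatment has 1 library, so no test between treatments could be made, and the effect of a library cannot be told apart from that of its treatment. Levels are CPM, the UMIs of a gene summed over the cells of a kind in a library and scaled to a common total, and ratios are of CPM. The 95% intervals (exact Clopper-Pearson for shares, exact Poisson for levels, exact conditional for ratios) cover counting error only.

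Foxp3-positive T cells were a smaller part of the sorted cells in the combo library under every denominator used. Among 14201 kept lenvatinib cells 423 (2.98%, interval 2.71% to 3.27%) were members, and among 11613 kept combo cells 62 (0.534%, interval 0.410% to 0.684%), a combo to lenvatinib ratio of 0.179 (0.125 to 0.253). Of the Cd3-positive cells that met the same exclusions, members made up 10.5% (9.55% to 11.5%) of 4038 in the lenvatinib library and 2.14% (1.65% to 2.74%) of 2892 in the combo library, a ratio of 0.205 (0.144 to 0.287). Of members and comparison cells together, here the CD4 T cells, of which only the comparison cells had to have a Cd4 UMI, members were 46.4% (43.1% to 49.7%) under lenvatinib and 9.76% (7.57% to 12.3%) under combo, a ratio of 0.211 (0.152 to 0.286). The comparison cells of this denominator numbered 489 and 573. With a Cd4 UMI asked of members too, they were 200 of 689 (29.0%, 25.7% to 32.6%) and 31 of 604 (5.13%, 3.51% to 7.21%), a ratio of 0.177 (0.108 to 0.281). Because a Foxp3 UMI is more easily found in a deep cell, cells were also drawn down to an equal 2000 UMIs, without those of lower depth. The gates were applied to the thinned counts, so a cell that lost its Cd8, Cd79a or Csf1r UMIs could enter. The member share of Cd3-positive cells then was 7.71% (284 of 3685, interval 6.87% to 8.62%) in the lenvatinib library and 1.14% (32 of 2811, interval 0.780% to 1.60%) in the combo library, a ratio of 0.148 (0.0905 to 0.234). With a gate by Cd4, Il2ra and Ctla4 in place of Foxp3, the Treg share of all cells was 1.13% and 0.448%, a ratio of 0.395. These are shares of sorted cells, and the number of Tregs per tumor was not measured here.

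**Figure D1:**
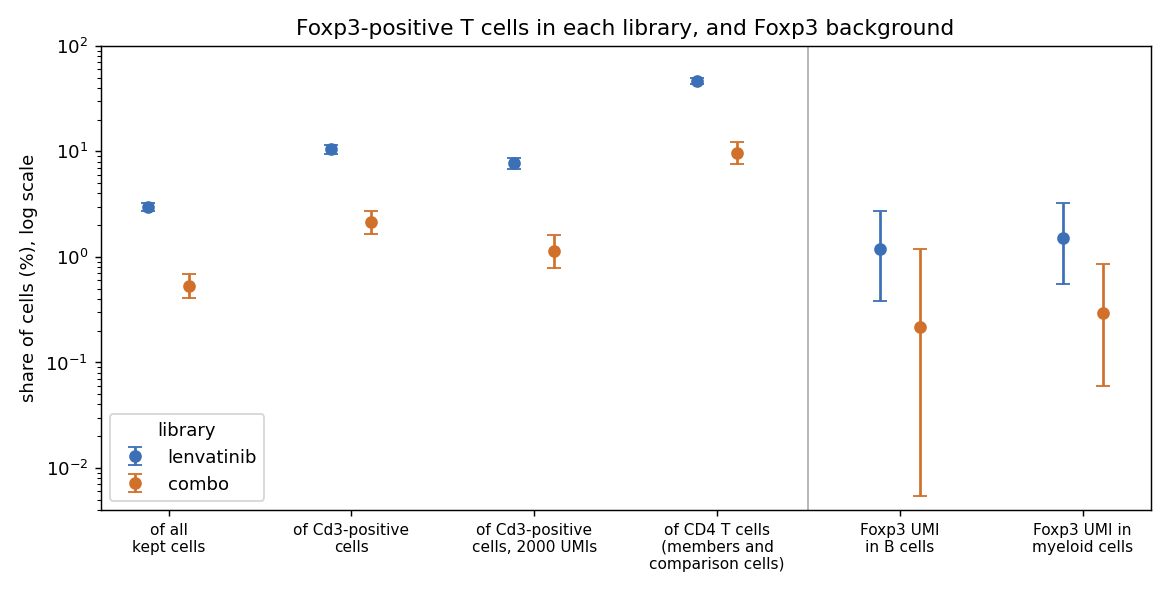
Share of cells (%, log axis) that were Foxp3-positive T cells, under 4 denominators, and share of B cells and myeloid cells with a Foxp3 UMI, in the lenvatinib (blue) and combo (orange) libraries. Points are the 2 libraries and bars are exact 95% intervals. The intervals of the 2 libraries do not overlap in the 4 member shares (10.5% and 2.14% of Cd3-positive cells). They overlap in the B and myeloid cells, where few cells held a Foxp3 UMI.

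Cells that should lack Foxp3 gave the background. A Foxp3 UMI was found in 5 of 423 B cells (1.18%, 0.385% to 2.74%) under lenvatinib and 1 of 463 (0.216%, 0.00547% to 1.20%) under combo, at median depths of 3368 and 3543 UMIs. In myeloid cells it was found in 6 of 398 (1.51%) and 3 of 1025 (0.293%), at median depths of 4454.5 and 6500 UMIs. The member shares of Cd3-positive cells, 10.5% and 2.14%, were above these background shares in both libraries, and the background was also lower in the combo library. Its combo to lenvatinib ratios were 0.183 (0.00200 to 3.11) in B cells and 0.194 (0.0186 to 1.54) in myeloid cells. These rest on few cells and are near the member ratio of 0.205. With equal depth the B cell background was 2 of 337 for lenvatinib and 0 of 394 for combo, the latter with an upper end of 0.932%.

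Most members held few Foxp3 UMIs. Under lenvatinib 174 members had 1 Foxp3 UMI, 91 had 2 and 158 had 3 or more, with a highest value of 10. Under combo 27 had 1, 15 had 2 and 20 had 3 or more, with a highest value of 7. The median was 2 UMIs in both libraries, and the summed Foxp3 level was 476 CPM under lenvatinib and 462 CPM under combo. These values were used to choose the members and are a description. Foxp3 (ENSMUSG00000039521) is encoded at 7573644 to 7595245 on the plus strand of chromosome X, Il2ra (ENSMUSG00000026770) at 11642807 to 11693193 on the plus strand of chromosome 2, Ctla4 (ENSMUSG00000026011) at 60887000 to 60915832 on the plus strand of chromosome 1, and Ikzf2 (ENSMUSG00000025997) at 69531214 to 69687245 on the minus strand of chromosome 1, all in GRCm38 (mm10). Reads of 3′ libraries fall near the end of a transcript, so that isoforms and promoters were not resolved.

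The label was checked against markers that the rule did not use. An Il2ra UMI was found in 238 of 423 members (56.3%) under lenvatinib and 30 of 62 (48.4%) under combo, against 16.8% and 10.5% of comparison cells. A Ctla4 UMI was found in 80.4% and 88.7% of members, against 46.8% and 58.3% of comparison cells. Ikzf2 was found in 94.3% and 87.1% of members, against 41.3% and 26.0% of comparison cells. After thinning to 2000 UMIs the Il2ra shares were 40.1% and 32.7% in members and 7.87% and 4.11% in comparison cells, in the same order as the unthinned shares. Per member, Ikzf2 ran from 0 through a median of 11 to 38 UMIs under lenvatinib, and from 0 through 5 to 29 under combo. Ctla4 ran from 0 through 3 to 37 UMIs and from 0 through 4 to 29. All these ranges overlapped between the libraries. Cd4 itself was seen in only 200 of 423 members (47.3%) and 31 of 62 (50%), at 155 and 165 CPM. Members without a Cd4 UMI carried the Treg genes as well. Their Ikzf2 level was 2331 CPM under lenvatinib, against 2364 CPM in members with a Cd4 UMI, and 1595 against 1086 CPM under combo. Their Il2ra level was 342 against 360 CPM under lenvatinib and 463 against 193 CPM under combo.

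Just inside the threshold, members with 1 Foxp3 UMI had 1892 CPM of Ikzf2 under lenvatinib and 1183 CPM under combo. Just outside it, Cd4-positive cells without a Foxp3 UMI had 457 and 104 CPM. Members with 2 Foxp3 UMIs had 2984 and 879 CPM, and those with 3 or more had 2509 and 1581 CPM. Il2ra was at 252 and 294 CPM in members with 1 Foxp3 UMI, at 455 and 238 CPM in those with 2, at 403 and 309 CPM in those with 3 or more, and at 53.2 and 26.5 CPM in the comparison cells. Ctla4 was at 625 and 922 CPM in members with 1 UMI, at 1037 and 849 CPM in those with 2, at 878 and 1846 CPM in those with 3 or more, and at 240.1 and 324 CPM in the comparison cells. Cells with 1 Foxp3 UMI stood above the comparison cells in all 3 genes and both libraries.

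**Figure D2:**
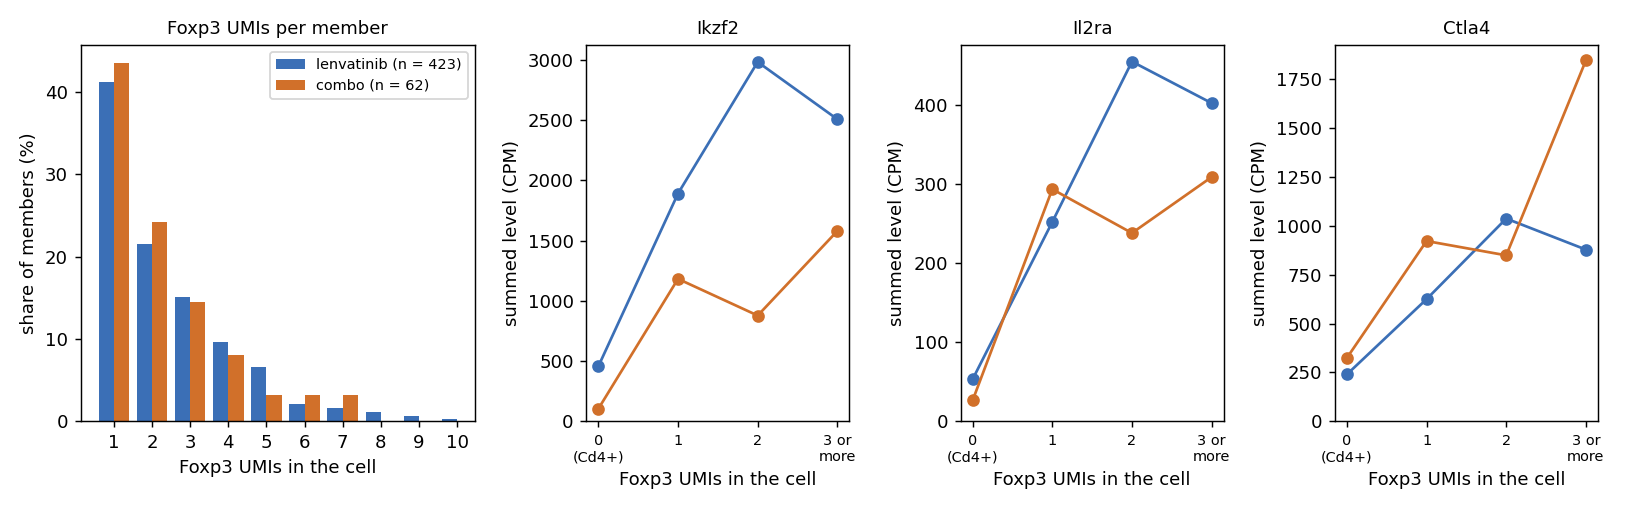
Left, share of members (%) by Foxp3 UMIs in the cell, in the lenvatinib (blue, n = 423) and combo (orange, n = 62) libraries. Right, summed level (CPM) of Ikzf2, Il2ra and Ctla4 in Cd4-positive comparison cells (0 Foxp3 UMIs) and in members with 1, 2 and 3 or more; members with 1 UMI already lie above the comparison cells (Ikzf2 1892 against 457 CPM under lenvatinib).

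Some members held RNA of other cell types. Among members, 12 of 423 and 3 of 62 had no UMI of a T cell receptor constant gene, and 35 and 8 had only 1 Cd3 UMI. Neutrophil genes made up over 5% of the UMIs in 5 lenvatinib members and 0 combo members, and in 3 and 18 comparison cells. Siglech, a plasmacytoid dendritic cell gene, had a UMI in 4 and 0 members and in 31 and 31 comparison cells. Levels without such cells come from a stricter rule chosen after the data were seen, which asks of both kinds of cells at least 2 Cd3 UMIs, a T cell receptor constant UMI, no Siglech UMI and at most 5% neutrophil UMIs. It left 375 and 53 members and 413 and 512 comparison cells. Scrublet called 22 of 423 members (5.20%) and 1 of 62 (1.61%) doublets, against 4.46% and 2.76% of all kept cells, and they were kept. In the combo library the deepest member alone held 9.12% of the members' UMIs, so that values from that library rest on few cells.

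Members differed from comparison cells first in the genes of Treg identity. Il2ra was at 352 CPM (328 to 378) in lenvatinib members and 53.2 CPM in comparison cells, and at 287 CPM (230.0 to 354) and 26.5 CPM under combo, ratios of 6.62 (5.55 to 7.94) and 10.9 (8.01 to 14.7). Ikzf2 was at 2349 against 457 CPM and at 1264 against 104 CPM, ratios of 5.15 (4.84 to 5.48) and 12.1 (10.5 to 14.0). Ctla4 was at 806 against 240.1 CPM and at 1251 against 324 CPM, ratios of 3.36 and 3.86. These genes were above the comparison cells in both libraries, by more than the counting intervals. Members were chosen by Foxp3, so this contrast describes what goes with a Foxp3 UMI and is no test. The part of Tregs without a caught Foxp3 UMI in the comparison levels of each library was not tested.

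A gene was counted as higher or lower when its ratio was at least 2 or at most 0.5, among genes with at least 50 CPM in 1 of the groups compared and at least 10 counts over both. Of the Treg identity list (14 genes without Foxp3), 8 of 12 compared genes were higher under lenvatinib and 8 of 11 under combo, where 2.95% and 6.81% of all genes compared were higher, and 0 were lower in either library. The list's median ratios were 3.47 and 3.34, against 1.03 and 1.16 over all genes. By the mean of each cell's CPM, which gives every cell the same weight whatever its depth, 8 of 12 and 9 of 11 identity genes were higher and 1 was lower under lenvatinib, where 118 of 3586 and 408 of 3394 of all genes were higher. Ikzf4 was at 134 CPM in lenvatinib members and 66.0 CPM in combo members, 4.41 (3.45 to 5.68) and 8.93 (4.72 to 16.6) times the comparison cells. Izumo1r (folate receptor 4) had ratios of 3.32 and 2.74. Capg, an actin-capping protein, was past the limit under combo only, with ratios of 1.90 (1.69 to 2.14) and 3.40 (2.85 to 4.04). Lrrc32 (GARP), which presents latent TGF-β at the cell surface, was at 61.4 against 10.4 CPM under lenvatinib, a ratio of 5.93 (3.94 to 9.19), and at 36.3 CPM in combo members, too low to be compared. Nrp1 and Foxo1 stayed within the limits, with ratios of 1.28 to 1.60.

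All 5 TNF receptor family genes that could be compared were higher in members in both libraries, with median ratios of 3.59 and 2.76. Over all genes compared, 2.95% and 6.81% were higher. Tnfrsf4 was at 843 CPM in lenvatinib members and 862 CPM in combo members, against 215 and 258 CPM in comparison cells. Tnfrsf18 was at 705 and 703 CPM, against 196 and 292 CPM. The levels of both receptors in members thus were alike in the libraries. Tnfrsf9 was at 462 and 551 CPM, against 96.5 and 58.0 CPM, ratios of 4.79 (4.18 to 5.50) and 9.50 (7.70 to 11.7). Tnfrsf1b (TNFR2) had ratios of 3.48 and 2.31, and Cd27 of 3.34 and 2.76.

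Among suppressive mediators, 5 of 10 compared genes were higher under lenvatinib and 4 of 8 under combo, and 0 were lower. Over all genes compared, 2.95% and 6.81% were higher. Areg, the growth factor amphiregulin that tissue Tregs use in repair, was at 267 against 42.5 CPM and 172 against 26.7 CPM, ratios of 6.29 and 6.42. Itgb8, which with its alpha chain frees active TGF-β, was at 102 against 13.2 CPM and 79.2 against 0.569 CPM. The latter comparison level rests on 2 counts, and the ratio of 139 has an interval of 34.6 to 1216. Fgl2, a secreted suppressor, had ratios of 2.35 and 2.78. Il10 was at 54.0 against 16.1 CPM under lenvatinib, a ratio of 3.36 (2.36 to 4.85), and at 46.2 CPM in combo members, below the limit for comparison. Tgfb1, Nt5e (CD73) and Gzmb stayed between 1.26 and 1.62. Under combo 7 of 10 genes were higher by the mean of each cell's CPM, among them Nt5e with 2.07 and Gzmb with 2.02.

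Of the genes of activated effector Tregs, 9 of 19 were higher and 1 lower under lenvatinib, and 8 of 18 were higher and 1 lower under combo (12 of 20 higher without the deepest members). Over all genes compared, 2.95% and 6.81% were higher and 1.84% and 3.82% lower. Klrg1, a marker of effector Tregs, was at 89.6 against 12.1 CPM and 56.1 against 3.70 CPM, ratios of 7.37 and 15.2 (6.94 to 34.0). In the combo members 35.3% of its 17 counts came from 1 cell. Itgae (CD103), which binds E-cadherin, was at 141 against 18.6 CPM under lenvatinib, a ratio of 7.58, and at 46.2 CPM in combo members. Maf and Rora, transcription factors of tissue T cells, were past the limit under combo only, with ratios of 1.48 and 2.52 for Maf and 1.24 and 2.03 for Rora, which was at 1.79 under the stricter rule. Cxcr6, a chemokine receptor of liver-resident T cells, was the lower gene, at 36.0 against 138 CPM and 36.3 against 96.7 CPM. Most Cxcr6 counts of the combo members (54.5%) came from 1 cell.

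Of all 3011 genes compared in both libraries, 48 (1.59%) were higher in members in both and 33 (1.1%) lower in both. By the weaker of both ratios, the leading genes with at least 10 counts in each group were Klrg1, Il2ra, Areg, Neb, Swap70, Ikzf2, Cd81, Tnfrsf9, Dst and Gm28112. Neb, a giant protein of muscle thin filaments, was at 225 against 40.4 CPM and 238 against 13.7 CPM, ratios of 5.57 (4.53 to 6.90) and 17.4 (11.9 to 25.6). Its counts were spread over cells, with at most 11.1% from any combo member. Swap70, a signaling adaptor that binds actin, had ratios of 5.24 and 11.3, and the tetraspanin Cd81 had ratios of 5.10 and 7.89. Dst, a cytoskeletal linker, had ratios of 4.70 and 5.39. These genes kept ratios above 4 under the stricter rule, among them Neb with 4.85 and 13.0 and Cd81 with 4.78 and 8.15.

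**Figure D3:**
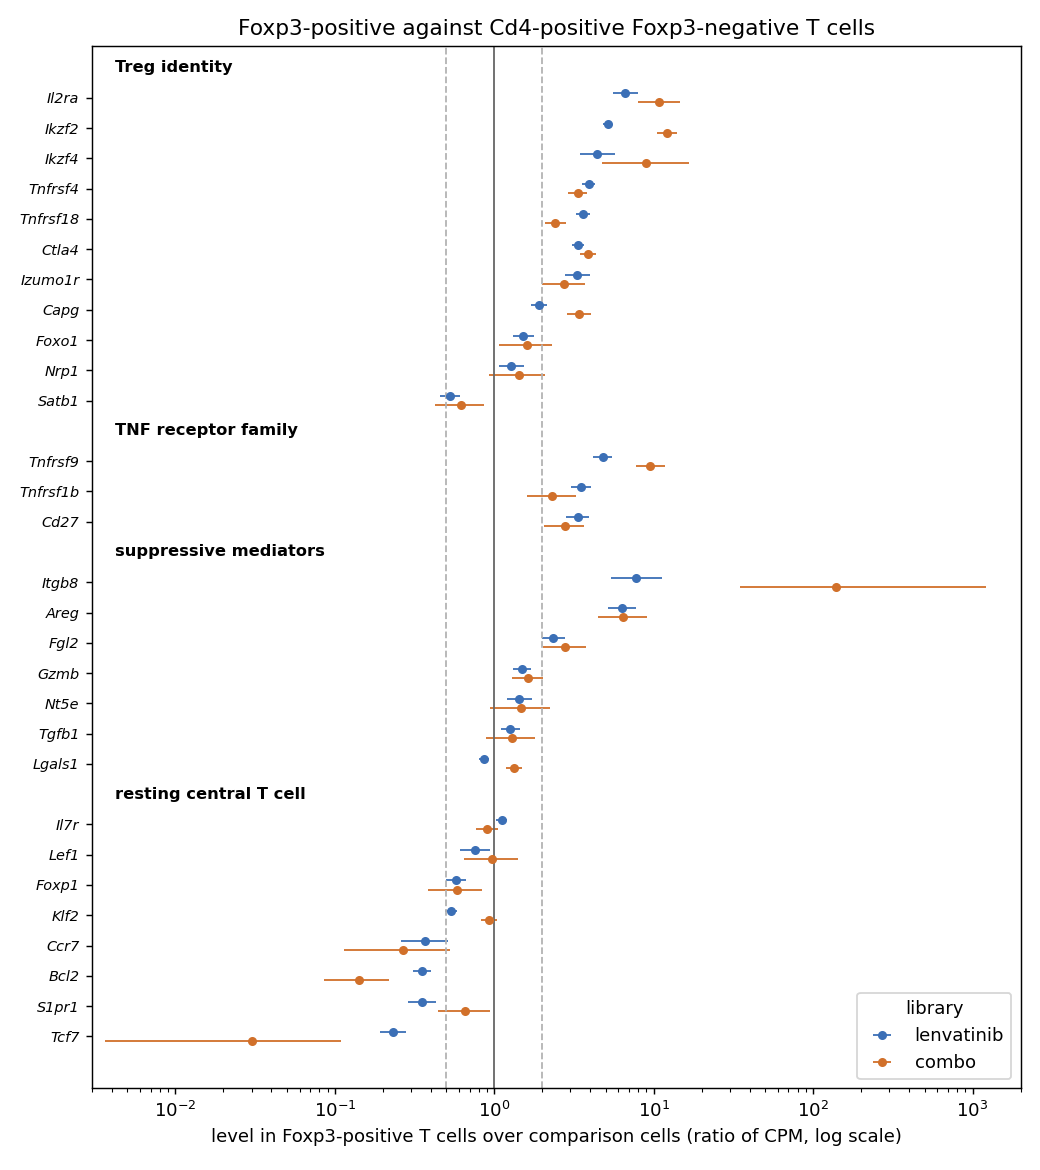
Ratio of levels (CPM, log axis) in Foxp3-positive T cells over Cd4-positive Foxp3-negative T cells for the genes of 4 lists that were compared in both libraries, lenvatinib in blue and combo in orange. Bars are exact 95% intervals of counting error and dashed lines mark ratios of 0.5 and 2; Il2ra (6.62 and 10.9) and Ikzf2 (5.15 and 12.1) lie to the right, and Tcf7 (0.232 and 0.0300) and Bcl2 (0.353 and 0.141) to the left.

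Part of the genes of resting and central T cells were lower in members. Of this list 5 of 11 compared genes were lower under lenvatinib and 4 of 10 under combo, where 1.84% and 3.82% of all genes were lower, and 0 were higher. The median ratios were 0.53 and 0.60, and under the stricter rule 4 of 10 and 3 of 9 genes were lower. Tcf7 (TCF1), a factor of naive and memory T cells, was at 60.0 against 259 CPM under lenvatinib and 6.60 against 220 CPM under combo, ratios of 0.232 (0.191 to 0.280) and 0.0300 (0.00363 to 0.109), the latter from 2 counts. Bcl2, a survival protein, was at 137 against 387 CPM and 66.0 against 467 CPM, ratios of 0.353 (0.310 to 0.402) and 0.141 (0.0861 to 0.219). Ccr7, the lymph node homing receptor, had ratios of 0.368 and 0.266. S1pr1, the receptor for egress from tissue, had ratios of 0.353 and 0.658, and Klf2, which drives S1pr1, of 0.537 and 0.924, so both were nearer to the comparison cells under combo. Il7r and Lef1 stayed between 0.756 and 1.11.

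Of the chemokine and homing receptors, 1 of 14 was higher and 6 lower under lenvatinib, and 0 of 13 higher and 5 lower under combo. The higher gene was Itgae. Over all genes compared, 2.95% were higher and 1.84% lower under lenvatinib, and 6.81% and 3.82% under combo. Itgb1, the integrin beta 1 chain, was at 153 against 482 CPM and 175 against 434 CPM, ratios of 0.318 (0.281 to 0.359) and 0.403 (0.301 to 0.530). Gpr183, which senses oxysterols in lymphoid tissue, had ratios of 0.496 and 0.498. Ccr8, often high on tumor Tregs, was at only 24.9 and 16.5 CPM in members and 8.93 and 5.97 CPM in comparison cells, too low to be compared. Of the helper genes, 3 of 5 were lower and 1 higher under lenvatinib, and 2 of 4 were lower under combo. Cd40lg, the CD40 ligand of helper T cells, was at 9.23 against 131 CPM and 42.9 against 153 CPM, ratios of 0.0704 (0.0425 to 0.110) and 0.280 (0.148 to 0.483). In the combo members 61.5% of the Cd40lg counts came from 1 cell. Ifng was at 85.4 against 154 CPM and 26.4 against 227 CPM, ratios of 0.553 and 0.116. Gata3 was the higher gene under lenvatinib, with ratios of 2.13 and 1.59, and was within the limit under the stricter rule (1.95 and 1.35). Tnf, at 38.8 against 91.1 CPM and 72.6 against 65.1 CPM, and Il17a, at 28.2 against 72.9 CPM and 0 counts in combo members, were the other lower genes under lenvatinib. Il2 had 2 counts in lenvatinib members and 0 in combo members, and Il4 and Il21 had 0 in both.

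Among the lowest genes in members by the weaker of both ratios, with at least 10 counts in each group, Itgb1, Bcl2, Cd40lg, Cxcr6, Pde7a, Ms4a4b and Themis are genes of T cells or of many cells. Ms4a4b, a membrane protein of T cells, was at 315 against 746 CPM and 218 against 602 CPM. Themis, a T cell receptor signaling protein, had ratios of 0.243 and 0.469. The other genes were Tcf4, Mpeg1 and Irf8, which plasmacytoid dendritic cells and phagocytes use. They went from ratios of 0.129 and 0.264 for Tcf4, 0.202 and 0.340 for Mpeg1 and 0.472 and 0.466 for Irf8 to 0.964 and 2.39, 2.30 and 2.69, and 1.58 and 1.97 under the stricter rule. The low values of these 3 genes therefore rested on comparison cells that the rule removes.

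Few genes of IL-2 and T cell receptor signaling were past the limit in members against comparison cells. Over all genes compared, 2.95% were higher and 1.84% lower under lenvatinib, and 6.81% and 3.82% under combo. In lists this short a single gene past the limit says little beside these shares. Of the IL-2 pathway list, 1 of 12 genes was higher and 1 lower under lenvatinib, and 1 of 11 higher and 1 lower under combo. The genes were Il2ra and Bcl2 in both libraries, whereas Il2rb and Il2rg, the other chains of the IL-2 receptor, had ratios of 1.51 and 1.07 and of 1.24 and 0.955. Of the T cell receptor signaling and feedback list, without the 3 Cd3 genes that the rule used, 2 of 14 were higher under lenvatinib, and 1 higher and 1 lower (Dusp6) of 14 under combo. Dusp4, a phosphatase induced by signaling, had ratios of 2.92 and 3.17. Rel (c-Rel), an NF-κB subunit needed for Foxp3 induction, was at 487 against 202 CPM under lenvatinib, a ratio of 2.41 (2.17 to 2.67), and at 149 against 145 CPM under combo, a ratio of 1.02 (0.738 to 1.39). Of the inhibitory and costimulatory receptors, 2 of 6 (Ctla4 and Pdcd1) were higher under lenvatinib and 1 (Ctla4) under combo, where Cd226, a costimulatory receptor, was lower with a ratio of 0.372. With the mean of each cell's CPM, Pdcd1 was within the limit under lenvatinib (1.93) and Icos past it under combo (2.24). Of the glycolysis list 0 of 14 genes were past the limit, with median ratios of 1.27 and 1.39. Of the S phase genes 0 of 7 were past it under lenvatinib and 2 of 7 (Mcm3 and Mcm6) were higher under combo, and of the mitosis genes 1 of 4 (Cenpf) was lower under lenvatinib and 1 of 2 (Mki67, with 37 of its 43 counts in 1 member) higher under combo. By the mean of each cell's CPM, 1 of 3 S phase genes was higher under combo and 0 mitosis genes were high enough to be compared. Of the CDK4/6 pathway Ccnd1 was lower in both libraries, which turned under the stricter rule (1.13 and 5.52), and Cdk6 was just past the limit under combo, with ratios of 1.23 and 2.09. The combo value of Cdk6 was within the limit under the stricter rule (1.98), without the deepest members (1.76) and by the mean of each cell's CPM (1.49).

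Between the treatments, members under combo differed from members under lenvatinib in more genes downward than upward. Of 3584 genes compared, 225 (6.28%) were lower and 78 (2.18%) higher under combo, 8.45% in either direction. In the comparison cells, where the depth was alike in the 2 libraries, 82 of 3313 (2.48%) were lower and 48 (1.45%) higher, 3.92% in either direction. The median ratio over all genes was 0.958 in members and 0.861 in comparison cells. Only 62 cells stand behind the combo members, so that a gene can pass the limit by counting error or through 1 cell.

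Treg identity genes in combo members lay mostly near their lenvatinib level. Of 12 compared genes, 0 were higher and 1 lower, with a median ratio of 0.91, and 10 genes compared in comparison cells held 0 higher and 2 lower. Among all genes compared, 2.18% were higher and 6.28% lower in members, and 1.45% and 2.48% in comparison cells. Tnfrsf4 and Tnfrsf18 had ratios of 1.02 (0.894 to 1.16) and 0.997 (0.860 to 1.15). Il2ra had a ratio of 0.815 (0.645 to 1.02) in members and 0.497 (0.379 to 0.648) in comparison cells. Ctla4 was higher under combo in members, by 1.55 (1.39 to 1.74), and in comparison cells, by 1.35 (1.23 to 1.49). Ikzf2 was lower in both, at 0.538 (0.484 to 0.597) in members and 0.228 in comparison cells. The comparison cells can include Tregs without a caught Foxp3 UMI, whose part in these ratios was not tested. Ikzf4 was the gene past the limit, with 0.493 (0.297 to 0.776) in members and 0.244 in comparison cells. It was within the limit by the mean of each cell's CPM (0.718) and without the deepest members (0.541), which left 0 of 12 identity genes lower. Under the stricter rule Ikzf4 was at 0.375, and 1 of 12 identity genes was lower, where 7.48% of all genes were lower. The genes of suppression had 0 of 9 past the limit, with Areg at 0.642 (0.474 to 0.854).

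Of the activated effector list 3 of 19 were lower under combo (Itgae, Tnfrsf1b and Cd83) and 1 was higher (Irf4), where 6.28% of all genes were lower and 2.18% higher, and 0 of 15 were past the limit in comparison cells. Itgae, Cd83 and Irf4 were not among these 15, because they were under 50 CPM there in both libraries. By the mean of each cell's CPM, 2 of 18 were lower and 0 higher, with Cd83 at 0.570 and Irf4 at 1.71, where 7.26% of all genes were lower, so that the list's share was near that of all genes. Tnfrsf1b was at 324 CPM (301 to 349) under lenvatinib and 129 CPM (91.5 to 176) under combo, a ratio of 0.397 (0.280 to 0.549), against 0.598 in comparison cells. Itgae had a ratio of 0.328 (0.177 to 0.559) in members and went from 18.6 to 2.84 CPM in comparison cells, a ratio of 0.153. Cd83 had 0.445 (0.245 to 0.749) in members and went from 37.2 to 11.9 CPM in comparison cells, a ratio of 0.322. Both genes thus were lower under combo in the comparison cells as well, which can include Tregs without a caught Foxp3 UMI. S100a4 and Icos, the receptor for ICOS ligand, were higher, at 1.78 (1.62 to 1.95) and 1.57 (1.34 to 1.83), against 0.774 and 1.09 in comparison cells.

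Of the T cell receptor signaling and feedback list, 4 of 13 genes were lower in combo members and 0 higher, against 0 past the limit of 13 in comparison cells. Rel had a ratio of 0.305 (0.221 to 0.411) in members and 0.717 in comparison cells. The orphan nuclear receptors Nr4a2 and Nr4a3, early targets of the receptor, had ratios of 0.274 (0.172 to 0.415) and 0.312 (0.194 to 0.478) in members and 0.626 and 0.550 in comparison cells, and Nfatc1 had 0.477 and 0.701. Nr4a1, of the same family, was at 264 CPM under lenvatinib and 244 CPM under combo, a ratio of 0.925 (0.716 to 1.18). Egr1, an early growth response factor, was at 1.80, with 40.4% of its combo counts from 1 cell. It was at 3.04 by the mean of each cell's CPM, past the limit, and 1 of 13 genes of the list was then higher and 4 lower. The proximal parts Lck, Zap70 and Lat lay between 0.882 and 1.47. Of the IL-2 pathway, 3 of 12 genes were lower and 0 higher in members, where 6.28% of all genes were lower, and 1 of 12 was lower in comparison cells. Il2rb was at 938 CPM (897 to 979) under lenvatinib and 406 CPM (337 to 484) under combo, a ratio of 0.433 (0.358 to 0.520), against 0.614 in comparison cells. Stat5a, which carries the IL-2 signal to the Foxp3 locus, had a ratio of 0.289 (0.130 to 0.558) on 9 combo counts, whereas its relative Stat5b had 0.985 (0.654 to 1.44). Bcl2 had 0.483 (0.291 to 0.760), against 1.21 in comparison cells. Under the stricter rule the ratios were 0.263 for Rel, 0.290 for Nr4a2, 0.277 for Nr4a3, 0.416 for Il2rb, 0.201 for Stat5a and 0.533 for Bcl2, which for Bcl2 is no longer past the limit. By the mean of each cell's CPM, 1 of 12 IL-2 pathway genes was lower, a share near the 7.26% of all genes. It was Stat5a with 0.461, while Il2rb had 0.542 and Bcl2 0.653.

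The resting list had 2 of 8 genes lower and 1 higher in combo members, where 6.28% of all genes were lower and 2.18% higher. The higher gene was Klf2, a factor of quiescence and recirculation, at 343 CPM (318 to 368) under lenvatinib and 1053 CPM (941 to 1175) under combo. Its ratio was 3.07 (2.69 to 3.51) in members and 1.79 in comparison cells, and 2.79 in members under the stricter rule. S1pr1 had a ratio of 1.79 (1.17 to 2.67) and Lef1 of 1.52 (0.990 to 2.27), both within the limit. Tcf7 moved the other way, with 130 counts under lenvatinib and 2 under combo, a ratio of 0.110 (0.0132 to 0.405), against 0.849 in comparison cells. The genes of the resting list thus went both ways under combo, with a median ratio of 1.04. In this list 1 of 7 genes was higher and 0 lower by the mean of each cell's CPM, with Tcf7 too low to be compared and Bcl2 at 0.653.

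Glycolysis genes had medians above 1 under combo in both kinds of cells. In members 4 of 14 were higher and 0 lower, with a median ratio of 1.74, and in comparison cells 1 of 13 (Tpi1) was higher, with a median of 1.51. Over all genes compared, 2.18% were higher in members and 1.45% in comparison cells, with medians of 0.958 and 0.861. Hk1 in members (0.910) and Pfkp in comparison cells (0.868) lay below 1. Aldoa was at 517 CPM (487 to 548) and 1089 CPM (975 to 1213), a ratio of 2.11 (1.86 to 2.39), against 1.97 in comparison cells. Pgk1 had 2.22 (1.88 to 2.61) in members and 1.67 in comparison cells, Eno1 2.05 and 1.58, and Hk2 2.30 (1.43 to 3.58) and 1.36. Gapdh had 1.76 (1.61 to 1.92) in members. Bnip3 and Pgm1, a mitophagy receptor and a glycogen enzyme that were among the 10 genes with the highest ratio, had 3.69 (2.31 to 5.79) and 3.66 (2.06 to 6.34) in members and 2.73 and 1.49 in comparison cells. Under the stricter rule the glycolysis list again had 4 of 14 genes past the limit.

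Palbociclib acts on CDK4 and CDK6, whose D-type cyclins open the way to S phase. Members carried Ccnd2 as the cyclin with the most counts, at 632 CPM under lenvatinib and 390 CPM under combo, a ratio of 0.617 (0.507 to 0.745), against 0.722 in comparison cells. Cdk6 was at 194 and 195 CPM, with an interval of the ratio of 0.751 to 1.32 in members, and a ratio of 0.588 in comparison cells. By the mean of each cell's CPM Cdk6 was at 219 and 149 CPM in members, a ratio of 0.683. Under the stricter rule its ratio in members was 1.03. Cdk4 was at 39.2 and 82.5 CPM, a ratio of 2.10 (1.29 to 3.32), which became 1.37 without the deepest member of each library and 1.93 by the mean of each cell's CPM. Rbl2 (p130), an Rb family member, was the lower gene, at 0.426 (0.253 to 0.676) in members and 0.498 in comparison cells. Of the list 1 of 8 compared genes was higher and 1 lower, and by the mean of each cell's CPM 0 of 8 were past the limit, with Rbl2 at 0.561. Over all genes compared, 2.18% were higher and 6.28% lower in members. Of the S phase genes 1 of 8 was higher, Mcm3 with 2.20 (1.39 to 3.39), and of the mitosis genes 0 of 3 were past the limit in members, whereas 3 of 4 were lower in comparison cells, with a median ratio of 0.37. The mean of each cell's CPM gave 0 of 3 S phase genes past the limit and 1 of 2 mitosis genes lower in members, with a median of 0.54. The combo members' mitosis counts came nearly all from 1 cell, which held 37 of 43 Mki67 counts (86.0%) and 28 of 34 Top2a counts (82.4%). A comparison of mitosis between members therefore rests on that cell.

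Among the 10 genes with the lowest ratio and at least 10 counts in each group were Ccl4, Xcl1, Penk, Ctsw and Gzma. Ccl4, a chemokine of activated lymphocytes, was at 285 CPM (263 to 308) under lenvatinib and 33.0 CPM (15.8 to 60.7) under combo, a ratio of 0.116 (0.0553 to 0.215), against 0.655 in comparison cells. In B cells Ccl4 was at 173 and 107 CPM, and in myeloid cells at 1264 and 526 CPM. Xcl1, which draws cross-presenting dendritic cells, had 0.144 (0.0800 to 0.238), against 0.715 in comparison cells, and was at 273 and 34.2 CPM in B cells. Penk, the enkephalin precursor that some tissue Tregs express, was at 159 and 36.3 CPM, a ratio of 0.228 (0.113 to 0.413), against 0.777. Gzma had 0.296 in members and 0.229 in comparison cells and was at 356 and 45.1 CPM in B cells. In members 1 cell held 23 of its 33 combo counts (69.7%), and by the mean of each cell's CPM its ratio was 0.543, within the limit. Ctsw, a protease of cytotoxic lymphocytes, had 0.293 in members and 0.603 in comparison cells. It was also lower under combo in B cells, at 48.4 and 16.2 CPM, and in myeloid cells, at 50.1 and 23.3 CPM. Ccl5, a chemokine outside these 10, had 0.384 (0.333 to 0.442) in members and 0.834 in comparison cells, and Gzmb, another granzyme, had 1.34 (1.06 to 1.68) and 1.23. Ccl5 and Gzmb were chosen here after their values were seen. H2-Ab1, an MHC class II chain of antigen-presenting cells, had 0.312, with 68.5% of its lenvatinib counts in 1 member. Under the stricter rule Ccl4 had 0.108, Xcl1 0.151, Penk 0.234 and Gzma 0.348 in members.

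Markers of other cells moved with some of these results. Between treatments, 6.28% of all genes compared were lower and 2.18% higher in members, and 2.48% were lower in comparison cells. By the mean of each cell's CPM 7.26% of all genes were lower in members. All 5 compared NK cell genes were lower in combo members, with a median of 0.19 (by the mean of each cell's CPM 1 of 2, with a median of 0.41), and 7 of 8 were lower in comparison cells, with a median of 0.37. Their summed level was 756 and 188 CPM in members, 960 and 294 CPM in comparison cells, and 646 and 92.8 CPM in B cells, so that it was lower in the combo library in cells that should not express them as well. Gzma had the most counts of the list in members (367 and 109 CPM), Ncr1 had a UMI in 43 of 423 members (10.2%) and 1 of 62 (1.61%), and Eomes was at 0 in combo members. Neutrophil genes summed to 8742 and 3060 CPM in members, 4783 and 20336 CPM in comparison cells and 397 and 13787 CPM in B cells. S100a8 was the gene of that list with the most counts, at 3722 and 1459 CPM in members. It had a UMI in 47.3% and 88.7% of members and in 43.5% and 94.4% of B cells. The neutrophil level of lenvatinib members came from few cells, since 2 members held 88.9% of their S100a8 and 96.5% of their Camp counts. Under the stricter rule S100a8 was at 162 CPM in lenvatinib members and 1451 CPM in combo members, a ratio of 8.96. There 5 of 6 compared neutrophil genes were higher under combo, with a median of 7.27, where 2.44% of all genes were higher. That rule removes cells by these same genes, so the values describe the cells left and are no test. Without it 4 of 6 were lower, with a median of 0.37. Without the deepest member of each library 1 of 6 was lower, with a median of 0.74, where 6.20% of all genes were lower. The deepest combo member alone held 51.4% of the S100a8 counts of all combo members. The macrophage markers C1qa, C1qb and C1qc had 4, 8 and 6 counts over the lenvatinib members and 0 over the combo members. Of the other marker lists, between treatments in members, 1 of 3 CD8 T cell genes (Ccl5) and 1 of 2 dendritic cell genes (H2-Ab1) were lower, 1 of 2 macrophage genes (Lyz2, with 78.8% of its combo counts in the deepest member) was higher, and 0 of 2 B and plasma cell genes were past the limit. A single gene past the limit in lists this short says little beside the shares over all genes. Genes of gamma-delta T cells, hepatocytes and erythrocytes were all too low to be compared. What part these cells and free RNA have in the ratios was not tested.

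Of the other genes with the highest combo ratio, several came from few cells. All 16 Lmo2 counts, 76.5% of the Cd14 counts and 59.4% of the Ifitm1 counts of the combo members were in the deepest member, which held 27619 UMIs and 1 Foxp3 UMI. Their ratios of 10.4, 8.68 and 8.32 became 0 for Lmo2 and 2.38 and 3.66 for the others without the deepest member of each library. Mt1, a metallothionein, had 58.3% of its counts in another cell and a ratio of 4.77. Hp, Wfdc17 and Ctsl had ratios of 4.05, 6.13 and 4.35, and the first 2 are genes of neutrophils and monocytes, which in comparison cells had ratios of 6.50 and 11.3. The deepest member held 50% of the combo Hp counts, and another cell held 46.4% of the combo Ctsl counts. With 2 Foxp3 UMIs required, the Ctsl ratio turned below 1. Tubgcp2, a part of the gamma-tubulin complex, had 6.75 (3.27 to 13.9) on 17 combo counts, with 23.5% from 1 cell, and 0.929 in comparison cells.

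**Figure D4:**
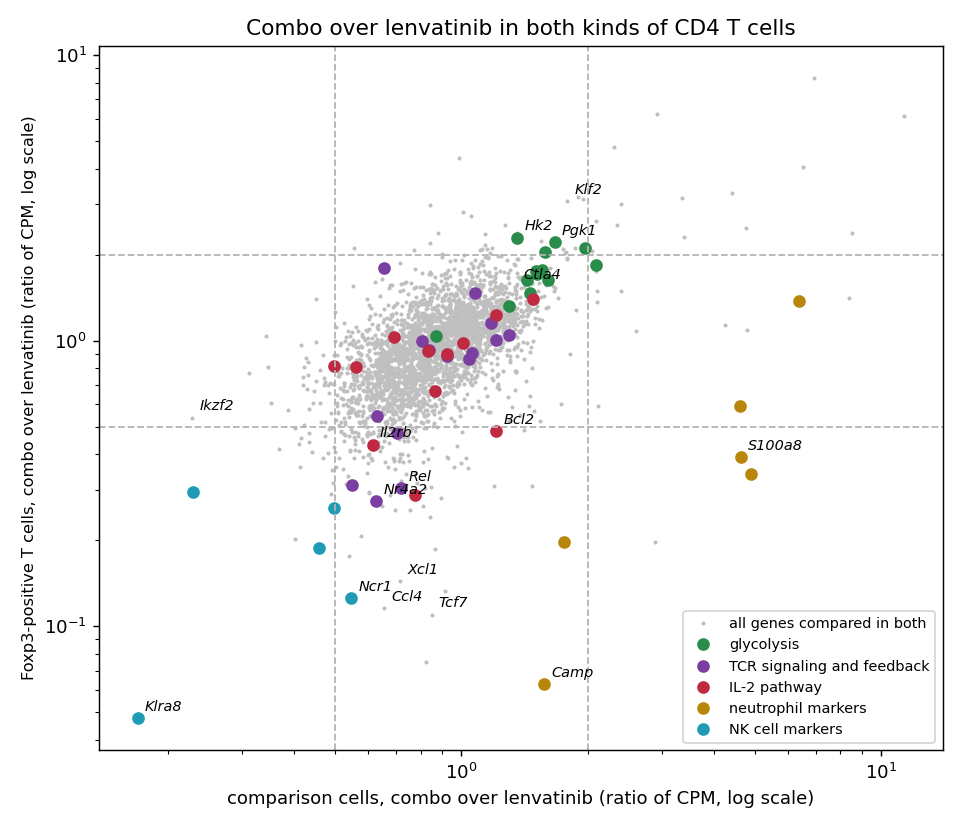
Ratio of levels, combo over lenvatinib (CPM, log axes), in comparison cells (x) and in Foxp3-positive T cells (y), for genes compared in both kinds of cells (grey), with 5 lists in color and dashed lines at 0.5 and 2. Glycolysis genes lie above 1 on both axes except Pfkp (0.868 in comparison cells), Rel (0.717 and 0.305) and Nr4a2 (0.626 and 0.274) lie lower in members, and neutrophil genes lie at the right, S100a8 at 4.62 in comparison cells and 0.392 in members.

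States within the members were compared per cell after thinning to 2000 UMIs, which left 382 lenvatinib and 52 combo members. A UMI of any of Tnfrsf9, Ccr8, Klrg1 or Icos, here called activated, was found in 301 of 382 members (78.8%, 74.4% to 82.8%) under lenvatinib and in 84.6% (71.9% to 93.1%) under combo. The comparison cells had 48.8% in both libraries. At 4000 UMIs the order of the members turned, with 185 of 211 (87.7%) under lenvatinib and 24 of 28 (85.7%) under combo. The intervals cover counting error over the cells of 1 library per treatment and are no test between treatments. At least 2 of 10 mitosis genes were found in 16 of 382 members (4.19%, 2.41% to 6.71%) under lenvatinib and 2 of 52 (3.85%, 0.469% to 13.2%) under combo, and in 7.87% and 3.22% of comparison cells. At 4000 UMIs they were found in 23 of 211 members (10.9%, 7.04% to 15.9%) and 1 of 28 (3.57%, 0.0904% to 18.3%). With at least 1 of the 10 genes, the shares of members were 28.5% (24.1% to 33.3%) and 5.77% (1.21% to 15.9%). Those of comparison cells were 24.9% (21.0% to 29.2%) and 11.8% (9.25% to 14.8%). Those of B cells were 14.7% (11.3% to 18.6%) and 5.80% (3.83% to 8.39%). In each of these kinds of cells the intervals of the libraries do not overlap. Unthinned shares were 87.5% and 90.3% for activated and 9.22% and 4.84% for cycling members.

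**Figure D5:**
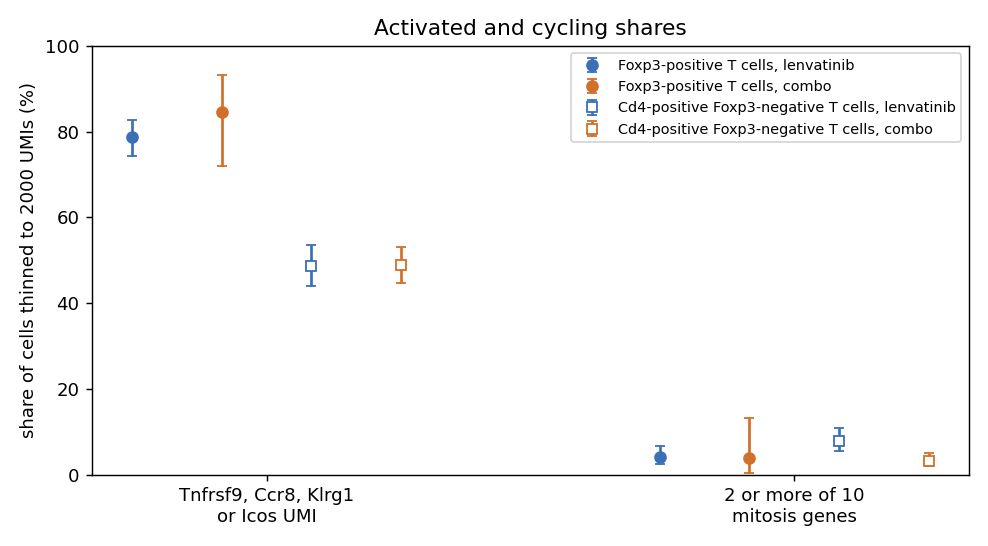
Share of cells (%) thinned to 2000 UMIs with a UMI of an activation gene, or of at least 2 of 10 mitosis genes, in Foxp3-positive T cells (filled circles) and comparison cells (open squares), lenvatinib in blue and combo in orange. Bars are exact 95% intervals; the activated share is higher in members (78.8% and 84.6%) than in comparison cells (48.8% in both), and the intervals of the libraries overlap in members in both states.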

How the data were processed

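Live CD45+ cells of 2 libraries, 1 per treatment, were profiled with 10x 3′ v3 chemistry. The deposited matrices hold UMI counts of each gene in each barcode, mapped to mm10 by the authors and not normalized; the submitters' processing notes name Cell Ranger 5.0.1 and the matrix headers name 6.0.1. Barcodes with at most 6000 genes and 25% mitochondrial UMIs were kept, the limits of the study. Groups came from the treatment labels. Both the members and the 27 gene lists (286 genes, 285 in the files) were chosen with earlier results of these data known.

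Counts were summed per library and kind of cell and given as CPM of all 32285 genes, with Python 3.11.15, numpy 2.4.6, scipy 1.17.1 and pandas 2.3.3. Cells were not treated as replicates, and no p-value was computed. A gene was compared with at least 50 CPM in 1 group and at least 10 counts over both, and counted at a ratio of at least 2 or at most 0.5. Genes named were the defining markers, in each list those with the most counts or past the limit, and the 10 highest and 10 lowest ratios per comparison (at least 10 counts in each group, without mitochondrial, ribosomal, receptor and immunoglobulin genes). Other genes named, such as S100a4, Ccr8 and Nr4a1, were chosen after their values were seen. Thinning drew 2000 UMIs per cell without replacement. Scrublet (scanpy 1.11.5, expected rate 6%) called doublets, which were kept. The steps were tested on simulated data. Alternatives covered the cell filter, doublets, the Foxp3, Cd4 and exclusion gates, depth, scaling and the CPM minimum. The stricter T cell rule and the omission of the deepest members were added after the data were seen. Some genes and a per-cell score of resting genes are not reported here. Gene positions come from the GRCm38 annotation.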

Additional observations from a re-analysis of the deposited data

Results flagged for a closer look

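A Foxp3 UMI was also present in barcodes outside the member rule. Under lenvatinib 640 barcodes had one, of which 8 were removed by the cell filter, 54 had no Cd3 UMI, 130 had Cd3 and a Cd8a or Cd8b1 UMI, 25 had a Cd79a or Csf1r UMI, and 423 were members. Under combo 102 had one, of which 1 was filtered, 14 had no Cd3 UMI, 23 had a Cd8 UMI, 2 had a Cd79a or Csf1r UMI, and 62 were members. The Foxp3- and Cd8-positive cells were deep, with median counts of 7479 and 8636 UMIs, and 60 of the 130 and 5 of the 23 had only 1 Cd8 UMI. They carried Treg genes at a lower level than members, with 1196 and 500.0 CPM of Ikzf2, 142 and 183 CPM of Il2ra and 383 and 470.3 CPM of Ctla4. Of all Cd8-positive T cells without Cd79a or Csf1r, 121 of 4558 (2.65%, 2.21% to 3.16%) under lenvatinib and 20 of 3211 (0.623%, 0.381% to 0.960%) under combo had a Foxp3 UMI. What these cells are was not tested.

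Neutrophil genes went in opposite directions in contrasts that were otherwise alike. The Camp level in members was 2.69 times that in comparison cells under lenvatinib and 0.107 times under combo, the gene with opposite calls among 3011 genes compared in both libraries. From lenvatinib to combo, S100a8 had ratios of 0.392 in members and 4.62 in comparison cells, and S100a9 of 0.342 and 4.89. Of 3102 genes compared in both kinds of cells, 3 had opposite calls, these 2 among them. Under the stricter rule, which removes cells by these genes, the member ratios of S100a8 and S100a9 turned to 8.96 and 6.48. The difference was not tested. In lenvatinib members 1 cell of 34826 UMIs held 80.3% of the Camp, 66.2% of the S100a8 and 61.5% of the S100a9 counts.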

How the results depend on the processing

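The share ratios, combo over lenvatinib, stayed between 0.148 and 0.216 under all alternatives that keep a Foxp3 gate. For cells gated by Cd4, Il2ra and Ctla4 without Foxp3, the ratio of the Treg share of all cells was 0.395, of the Treg share of Cd3-positive cells 0.451 and of the Treg share of CD4 T cells 0.368. The activated ratio (1.07) turned to 0.978 at 4000 UMIs. Counts of genes higher or lower in both libraries (48 and 33) and higher or lower under combo (78 and 225) moved to 29, 16, 33 and 90 at a minimum of 100 CPM and to 230, 241, 563 and 1552 with no minimum, where fewer or more genes were compared. With 2 Foxp3 UMIs required they were 57 lower in both, 122 higher and 393 lower under combo. Comparison cells without Il2ra or Ikzf2 UMIs gave 76 higher in both, and no exclusions in them 57 lower in both. Higher under combo were 126 by the mean of each cell's CPM, with 40 of the 78 shared, and 150 with mitochondrial, ribosomal and hemoglobin genes out of the total, which shifted log2 ratios by 0.05 (members over comparison cells by -0.06 and -0.12). Higher in members under combo were 408 of 3394 genes by the mean of each cell's CPM, against 223 of 3275. The stricter rule kept 43 of 48, 17 of 33, 68 of 78 and 202 of 225 genes. Under it, member over comparison ratios of several genes crossed 1. In both libraries they included Ccnd1 (1.13 and 5.52), Irf8 (1.58 and 1.97), Mpeg1 (2.30 and 2.69), H2-Ab1 (1.88 and 1.43) and Ngp (0.846 and 1.39). Under combo they also included Ctsl (5.91), Hp (2.40), Ifitm1 (2.32), Lcn2 (1.33), Mmp9 (1.19), S100a8 (1.53), S100a9 (1.22) and Tcf4 (2.39). Combo over lenvatinib ratios of Camp (1.92), Ngp (6.43), S100a8 (8.96) and S100a9 (6.48) crossed 1 as well. Without the deepest members, Camp was at 0.538 over comparison cells under lenvatinib, where S100a8 was at 1.02 without cycling cells. With 2 Foxp3 UMIs, combo ratios were 0.760 for Ctsl and 1.04 for H2-Ab1. The cause of these changes was not tested. Of the values of single genes past the limit, 1334 stayed within 1.5 times in the same direction, 145 moved further and 21 reversed, and of the shares and counts of genes 55 stayed, 18 moved and 1 reversed. No paired analysis was possible because each treatment is 1 library and no test was run.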

Other observations

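Of the interferon-stimulated genes in members against comparison cells, 0 of 10 were higher and 1 lower under lenvatinib (Bst2, 0.486, with 0 lower under the stricter rule or by the mean of each cell's CPM) and 0 of 8 past the limit under combo, where 4 of 9 were higher by the mean of each cell's CPM, with a median of 1.49. In members the interferon-stimulated genes had a median ratio, combo over lenvatinib, of 0.785, with 0 of 9 past the limit, against 0.696 in comparison cells. Under the stricter rule 2 of 8 were lower in members, with a median of 0.627, where 7.48% of all genes were lower. By the mean of each cell's CPM 1 of 11 was higher and 1 lower, where 3.39% of all genes were higher and 7.26% lower. Ifi27l2a was at 1434 CPM (1384 to 1486) under lenvatinib and 723 CPM (630.3 to 825) under combo, a ratio of 0.504 (0.437 to 0.578), against 0.587 in comparison cells.

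Among writers and erasers of DNA methylation, Dnmt3a was at 88.2 CPM in lenvatinib members and 42.9 CPM in combo members, a ratio of 0.487 (0.254 to 0.852), and 0.423 in comparison cells. It was just past the limit, and under the stricter rule 0 of 4 genes of the list were lower, where 7.48% of all genes were lower. Dnmt1 was at 73.4 and 112 CPM, a ratio of 1.53 (1.02 to 2.23), with 32.4% of the combo counts from 1 cell, and 0.673 in comparison cells. Immediate early and stress genes had 0 of 11 past the limit between treatments in members, with a median of 1.11. Among all genes compared, 2.18% were higher and 6.28% lower. Jun and Fos had ratios of 1.85 (1.54 to 2.22) and 1.62 (1.37 to 1.91) in members, against 1.11 and 1.06 in comparison cells.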
